A study of Homo sapiens with 15 samples.

Results

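The 10 genes described here encode enzymes that activate long-chain fatty acids and enzymes that make, lengthen and desaturate them: ACSL1, ACSL3, ACSL4, ACSL5, FASN, SCD, ACACA, ACLY, ELOVL6 and FADS2. They were chosen by name out of 47634 gene identifiers, with the read counts in view, because ACSL3 showed the clearest fall with cisplatin. The comparison of cisplatin with untreated cells is therefore a description for all of these genes and carries no test. Comparisons of drug-treated groups with cisplatin use the same cisplatin libraries. ACSL3 carries no test there, and the calls of the other members are not independent of the choice. Comparisons between drug groups leave those libraries out of the contrast, but the counts of all 15 libraries were in view. Their calls are not fully independent of the choice either. The counts come from QuantSeq, an RNA-seq method that sequences the 3′ end of messenger RNA, applied to IGROV-CP20, a human ovarian cancer line selected for resistance to cisplatin.

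All 15 libraries were made from this 1 resistant line, with 3 libraries labelled as biological replicates in each of 5 conditions. Untreated cells received no drug. The cisplatin group received 50 µM cisplatin for 24 h. In the other 3 groups the cells were first exposed to 10 µM Tranilast (an anti-allergic drug), Telmisartan (a blocker of the angiotensin II receptor) or Amphotericin B (an antifungal that binds sterols) for 24 h, and then to 50 µM cisplatin for 24 h. These groups are called here the Tranilast, Telmisartan and Amphotericin B groups. Every drug-treated cell thus also received cisplatin, and libraries of a drug without cisplatin or of the parental sensitive line were not analysed here.

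A long-chain fatty acid has to be joined to coenzyme A before a cell can use it, and the acyl-CoA synthetases ACSL1, ACSL3, ACSL4 and ACSL5 carry out this step. ACSL3 sits on the endoplasmic reticulum and lipid droplets and feeds fatty acids into glycerolipids, while ACSL4 prefers arachidonic acid and other polyunsaturated fatty acids. New fatty acids begin with ACLY, which splits citrate into acetyl-CoA, and ACACA, which turns acetyl-CoA into malonyl-CoA. FASN then builds palmitate, ELOVL6 lengthens it, SCD introduces a double bond to give monounsaturated fatty acids, and FADS2 desaturates essential polyunsaturated ones. Several of these genes are known targets of the sterol regulatory element-binding proteins.

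The promoters of ACSL3 and SCD are printed to place the gene with the lowest cisplatin level relative to untreated cells beside the most counted member of the set. Each window holds the 300 bases from 250 before to 50 after the RefSeq transcription start (GRCh38.p14), 5′ to 3′ on the gene's strand, with each CCAAT box in capitals. The ACSL3 window lies at chr2:222860786-222861085 on the plus strand, and the SCD window at chr10:100346983-100347282 on the plus strand.
ACSL3: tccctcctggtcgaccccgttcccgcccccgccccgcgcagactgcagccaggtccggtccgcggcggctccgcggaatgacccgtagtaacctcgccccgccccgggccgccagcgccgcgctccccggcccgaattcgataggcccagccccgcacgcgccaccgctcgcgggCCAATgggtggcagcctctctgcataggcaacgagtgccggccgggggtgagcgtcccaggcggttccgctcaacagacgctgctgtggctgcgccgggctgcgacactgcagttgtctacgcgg
SCD: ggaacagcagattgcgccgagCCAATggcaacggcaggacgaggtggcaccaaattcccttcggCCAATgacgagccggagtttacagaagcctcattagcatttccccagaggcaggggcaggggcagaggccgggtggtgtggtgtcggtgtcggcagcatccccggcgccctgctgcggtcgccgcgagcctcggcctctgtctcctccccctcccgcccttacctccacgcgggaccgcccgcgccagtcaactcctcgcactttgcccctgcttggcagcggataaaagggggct
The ACSL3 window held 1 CCAAT box and 3 GC boxes, and the SCD window held 2 CCAAT boxes and 2 GC boxes. Both strands were searched for CCAAT, for the GC box GGGCGG, for the E-box CACGTG, for CACCCCA (the core of a sterol element) and for TGACG, a site of CREB and ATF factors. These letters were found in 34.6%, 45.0%, 7.26%, 8.08% and 24.6% of all 35116 promoter windows of this length. In SCD the TGACG shares its first letter with the second CCAAT box. RefSeq windows were at hand for 9 of the 10 members, 18 windows in all, of which 8 held a CCAAT box and 11 a GC box, and none held the E-box. A match of letters describes the window and is not evidence of binding.

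The libraries held from 1510620 to 3517041 counts, with the Amphotericin B group the shallowest at 1510620 to 1872639. Epithelial keratin KRT18 was present in every library at 84.0 to 209 CPM (counts scaled to a common library total) and EPCAM at 11.2 to 43.4 CPM. KRT8 was at 7.14 to 26.3 CPM and KRT19 at 0 to 6.35 CPM. The fibroblast gene COL1A1 was at 6.38 to 8.63 CPM in untreated cells and up to 32.7 CPM in any library, and COL3A1 at 2.94 to 12.9 CPM. PDGFRB and the hepatocyte genes ALB and APOA1 reached at most 1.66, 9.70 and 2.24 CPM. Endothelial VWF and the adipocyte genes ADIPOQ and LEP had 0 counts. The ovarian cancer markers PAX8 and WT1 did not exceed 1 count in any library. EPCAM (39.9 to 43.4 CPM), the mesenchymal cadherin CDH2 (69.1 to 82.0 CPM) and the leukocyte gene PTPRC (64.5 to 75.4 CPM) were high in untreated cells, and their lowest values in any library were 11.2, 2.78 and 2.45 CPM. Their part in the members' differences was not tested. The distance between libraries was measured as chi-square over degrees of freedom across genes, where 1 is counting noise alone. Cisplatin replicate 1 differed from its own group (26.4 and 43.1) far more than from Telmisartan replicates 1 and 2 (8.25 and 4.98). Telmisartan replicate 3 likewise differed more from its own group (37.8 and 44.1) than from cisplatin replicate 3 (8.82). The same libraries crossed over in the share of counts on mitochondrial ribosomal RNA, which was 13.7% in cisplatin replicate 1 against 5.61% and 3.41% in the other cisplatin libraries, and 3.61% in Telmisartan replicate 3 against 10.8% and 12.9%. Whether the labels of these 2 libraries were exchanged was not tested, and every cisplatin and Telmisartan value below carries that doubt. All libraries were kept under their labels, and the calls of members and the counts of the gene lists are also given without both. Levels below are CPM scaled by TMM (trimmed mean of M values), and fold changes are from edgeR's quasi-likelihood fit to all libraries with Benjamini-Hochberg adjustment over 11113 tested genes and a threshold of 0.05.

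The level of ACSL3 was 346, 319 and 316 CPM in untreated cells and 68.3, 45.1 and 43.7 CPM after cisplatin, so that the cisplatin mean was 16.0% of the untreated one. In the Tranilast group it was 115, 151 and 154 CPM. Every Tranilast library was thus above every cisplatin library and below every untreated one. Of all tested genes, 21.4% were higher without overlap for Tranilast against cisplatin, and 25.1% were lower for Tranilast against untreated cells. The Amphotericin B libraries held 74.0, 76.2 and 73.8 CPM and the Telmisartan libraries 65.8, 61.3 and 90.3 CPM. From high to low the order of the means was untreated, Tranilast, Amphotericin B, Telmisartan and cisplatin, and the Telmisartan libraries overlapped both of their neighbours. In bulk RNA such as this, fewer cells expressing a gene and less of its RNA per cell cannot be told apart.

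**Figure D1:**
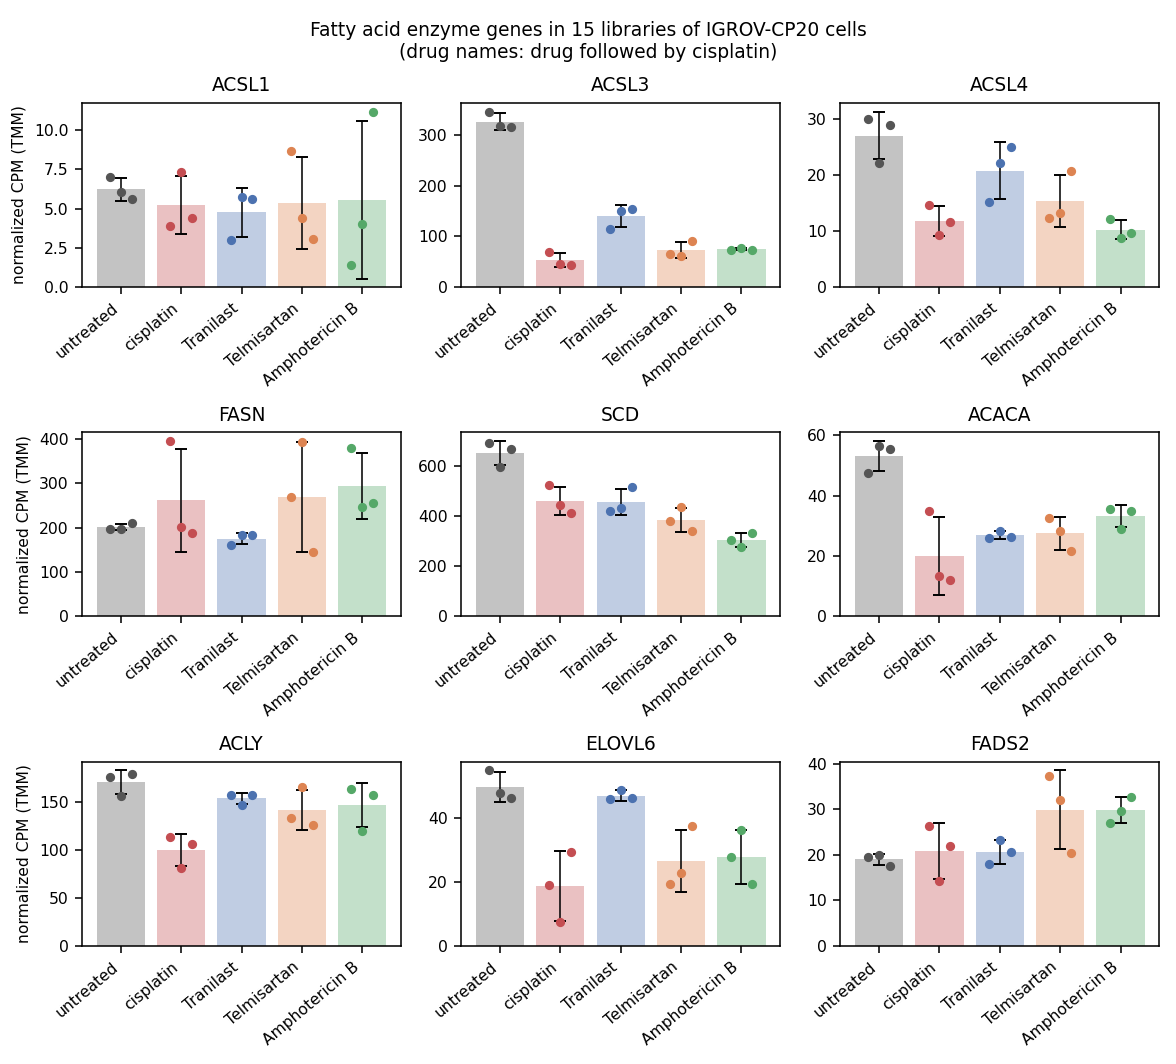
Level of each of 9 members in 15 libraries (y axis, TMM-normalized CPM, one scale per gene), with the 5 conditions on the x axis, dots for the 3 libraries, bars for the group mean and whiskers for ± 1 SD; ACSL5 had no counts and is not drawn. ACSL3 drops from 316 to 346 CPM in untreated cells to 43.7 to 68.3 CPM with cisplatin, and the Tranilast libraries lie between them.

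The fitted difference of ACSL3 between cisplatin and untreated cells was −2.65 on the log2 scale, and those between the Tranilast, Telmisartan and Amphotericin B groups and cisplatin were 1.43, 0.48 and 0.52. The cisplatin libraries that chose the gene enter each of these values, which are given without a test. The groups that received a drug before cisplatin can be compared with each other directly, with no cisplatin-only or untreated library in the contrast. Those libraries still enter the shared estimate of spread. The counts of all 15 libraries were in view when the set was chosen, so these tests are not fully independent of the choice. ACSL3 was higher in the Tranilast than in the Amphotericin B group by 0.91 ± 0.20 (log2, SE; 95% interval 0.48 to 1.34; adjusted p = 0.00324), and in every Tranilast library against every Amphotericin B library. Without overlap, 31.9% of all tested genes were higher in this comparison. ACSL3 was also higher with Tranilast than with Telmisartan by 0.94 ± 0.20 (interval 0.53 to 1.36; adjusted p = 0.0412). Between Telmisartan and Amphotericin B the difference was −0.03, with an interval from −0.47 to 0.40. The call against Telmisartan rests on a narrow margin: it was lost in 11 of the 15 fits that left out 1 library, with values of 0.84 to 1.15. Among the 11 were the fits without any 1 of the untreated libraries (0.95 in each), which are not part of the contrast. Without both libraries that stand apart the difference was 1.15 and stayed past the threshold. That fit leaves out the Telmisartan library with the highest ACSL3 (90.3 CPM). The Telmisartan libraries it keeps had 10.8% and 12.9% mitochondrial ribosomal RNA, against 2.10 to 2.53% with Tranilast, so that drug and share cannot be told apart in it. The call against Amphotericin B was lost only when the mitochondrial ribosomal RNA share entered the fit, with a value of 0.93, and that share was 12.3 to 14.8% in all Amphotericin B libraries and 2.10 to 2.53% in all Tranilast libraries, so that the 2 cannot be told apart.

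The other synthetase with usable counts, ACSL4, went through a smaller range. Untreated cells held 22.2 to 30.0 CPM of it and cisplatin-treated cells 14.6, 9.32 and 11.5 CPM. Its level was 15.3, 22.1 and 25.0 CPM with Tranilast, 12.2, 13.3 and 20.6 CPM with Telmisartan, and 12.1, 8.82 and 9.69 CPM with Amphotericin B. The Tranilast libraries were all above the cisplatin and the Amphotericin B libraries, and the Telmisartan libraries overlapped those of cisplatin and Tranilast. Of all tested genes, 21.4% were higher without overlap for Tranilast against cisplatin and 31.9% for Tranilast against Amphotericin B. The rise with Tranilast was 0.84 ± 0.28 against cisplatin (log2, SE; adjusted p = 0.0400) and 1.03 ± 0.30 against Amphotericin B (adjusted p = 0.0149). The first of these calls was lost in 6 of the 15 fits without 1 library (values of 0.68 to 1.01 over the 15), in a fit of the 6 libraries alone (0.83) and with the mitochondrial ribosomal RNA share in the fit (0.73). The second was lost without Tranilast replicate 3 (0.88) or Amphotericin B replicate 3 (0.96), and with that share in the fit (0.77). Counts of ACSL4 were between 11 and 29 in 8 of the 9 libraries from the cisplatin, Telmisartan and Amphotericin B groups, which limits the precision.

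Counts of 2 members of the synthetase family, ACSL3 and ACSL4, divided within each library give a ratio that no scaling between libraries can change. For every count of ACSL4 there were 10.9 to 14.4 counts of ACSL3 in untreated cells and 3.79 to 4.84 after cisplatin. The ratio was 6.16 to 7.56 with Tranilast, 4.37 to 5.38 with Telmisartan and 6.12 to 8.64 with Amphotericin B. The untreated and cisplatin ratios restate the fall for which ACSL3 was chosen and support nothing further. The Tranilast and Amphotericin B ratios both lay above all cisplatin ratios and overlapped each other. Against SCD, ACSL3 counts were 0.473 to 0.533 per SCD count in untreated cells, 0.101 to 0.130 after cisplatin, 0.273 to 0.349 with Tranilast, 0.140 to 0.266 with Telmisartan and 0.220 to 0.274 with Amphotericin B. Against ACLY, the ratio was 1.76 to 2.03 in untreated cells, 0.409 to 0.604 after cisplatin, 0.731 to 1.03 with Tranilast, 0.370 to 0.715 with Telmisartan and 0.452 to 0.633 with Amphotericin B, so that of the drug groups only Tranilast lay above all cisplatin libraries. The mean for ACLY was 0.518 with Amphotericin B and 0.522 after cisplatin.

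**Figure D2:**
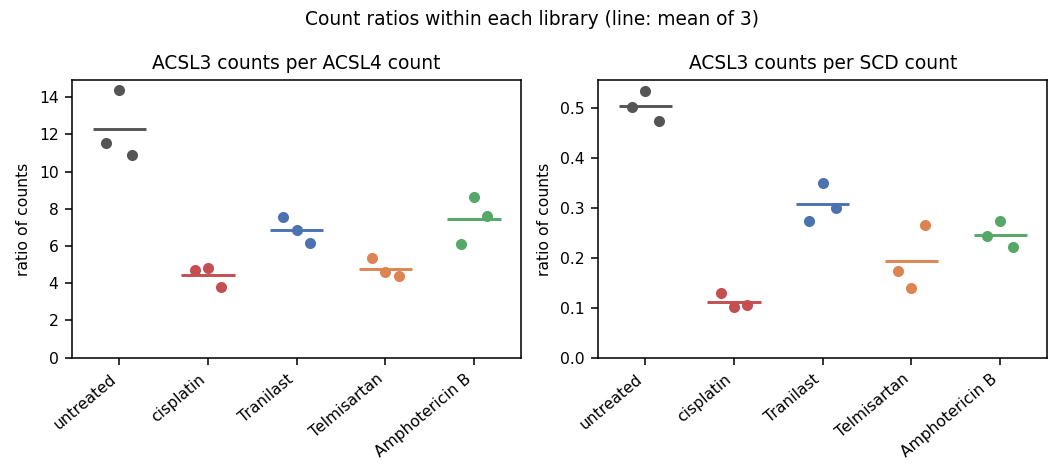
Counts of ACSL3 per count of ACSL4 (left y axis) and per count of SCD (right y axis) within each library, by condition on the x axis, with dots for the 3 libraries and a line for their mean. Cisplatin has the lowest mean ratio in both panels, with libraries at 3.79 to 4.84 and 0.101 to 0.130, and no treated library reaches the untreated range.

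The remaining synthetases were barely counted. ACSL1, which supplies acyl-CoA for oxidation and triglyceride synthesis in many tissues, had 2 to 25 counts per library and 1.42 to 11.2 CPM, and its libraries overlapped in every comparison. Its interval for Tranilast against cisplatin ran from −1.16 to 0.98 on the log2 scale, which is wide because so few reads were counted. ACSL5, the synthetase best known from intestine and liver, had 0 counts in all 15 libraries, which allows up to 3 counts or 0.853 to 1.99 CPM per library, for counting error only. It was not tested.

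The first steps of synthesis are those of ACLY and ACACA, whose difference of cisplatin from untreated cells carries no test. ACLY was at 177, 157 and 179 CPM in untreated cells and at 113, 81.4 and 107 CPM after cisplatin, with no overlap. Of all tested genes, 29.5% were lower after cisplatin without overlap. All drug groups lay above the cisplatin libraries: ACLY reached 158, 147 and 157 CPM with Tranilast, 133, 166 and 126 CPM with Telmisartan, and 164, 120 and 157 CPM with Amphotericin B. Of all tested genes, 21.4%, 4.38% and 10.9% were higher than cisplatin without overlap in the Tranilast, Telmisartan and Amphotericin B groups. The difference of ACLY from cisplatin was 0.62 ± 0.18 with Tranilast (log2, SE; adjusted p = 0.0209), which passed the threshold. It was 0.55 ± 0.18 with Amphotericin B (adjusted p = 0.0524) and 0.49 ± 0.18 with Telmisartan (adjusted p = 0.371), which did not. The Amphotericin B difference passed in DESeq2 (0.61), with RLE factors (0.61), without cisplatin replicate 1 (0.68), Telmisartan replicate 3 (0.55) or Amphotericin B replicate 2 (0.67) and without both libraries that stand apart (0.63). The Telmisartan difference passed only without both (0.66). The Tranilast call was lost without cisplatin replicate 2 (0.49), without any 1 of the Tranilast libraries (0.61, 0.65 and 0.61) and in a fit of the 6 libraries alone (0.61). No difference in ACLY between drugs passed the threshold, with intervals of −0.31 to 0.44 for Tranilast against Amphotericin B and −0.25 to 0.49 for Tranilast against Telmisartan.

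ACACA, the next enzyme and the rate-limiting step of the pathway, had 47.5, 56.4 and 55.5 CPM in untreated cells. After cisplatin it was at 34.7, 13.2 and 11.9 CPM, so that cisplatin replicate 1 held well over the level of both other libraries. The drug groups ranged from 26.1 to 28.3 CPM with Tranilast, from 21.7 to 32.7 CPM with Telmisartan and from 28.9 to 35.6 CPM with Amphotericin B. With all libraries in the fit, ACACA differed from cisplatin by 0.46 (Tranilast), 0.48 (Telmisartan) and 0.76 (Amphotericin B) on the log2 scale, and none passed the threshold (adjusted p = 0.278, 0.628 and 0.110). Without cisplatin replicate 1 the values were 1.11, 1.15 and 1.44, and all passed it. Without both libraries that stand apart they were 1.10, 1.28 and 1.40, and again all passed it. The Tranilast difference also passed when only library size was used for scaling (0.99) and with the mitochondrial ribosomal RNA share in the fit (1.12).

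FASN, which builds palmitate from malonyl-CoA, followed neither of these patterns. Its level in untreated cells was 197 to 210 CPM. After cisplatin it was 395 CPM in replicate 1 and 202 and 187 CPM in the others, and with Telmisartan it was 269, 394 and 145 CPM. The Tranilast libraries held 160, 183 and 183 CPM, below every cisplatin and every Amphotericin B library, the latter at 380, 246 and 256 CPM. These differences, −0.57 against cisplatin and −0.75 against Amphotericin B on the log2 scale, missed the threshold (adjusted p = 0.181 and 0.0642). Of all tested genes, 18.9% and 23.3% were lower without overlap in these comparisons. Without both libraries that stand apart, FASN was lower with Tranilast than with Amphotericin B by −0.74 and than with Telmisartan by −0.91, past the threshold in both, and differed from cisplatin by −0.15. The difference from Amphotericin B also passed in DESeq2 (−0.87), with RLE factors (−0.87), with no expression filter (−0.62) and in the 6 libraries alone (−0.89). It passed as well without cisplatin replicate 1 (−0.78), Telmisartan replicate 2 (−0.74) or Telmisartan replicate 3 (−0.74). Without Telmisartan replicate 3 the difference from Telmisartan (−0.91) passed too.

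FASN and FADS2 moved with the mitochondrial ribosomal RNA share. This share was over 10% in 6 libraries (cisplatin replicate 1, Telmisartan replicates 1 and 2, and all Amphotericin B libraries) and 1.79 to 5.61% in the other 9. FASN was at 246 to 395 CPM in the 6 and at 145 to 210 CPM in the 9. FADS2 was at 26.3 to 37.3 CPM in the 6 and at 14.2 to 23.2 CPM in the 9. No other member separated these libraries, and 7.26% of all tested genes were higher in this non-overlapping way and 5.85% lower. With the share in the fit, FASN turned from lower to higher with Tranilast against cisplatin (0.17), Amphotericin B (0.65) and Telmisartan (0.34). None of these values passed the threshold (adjusted p = 0.508, 0.230 and 0.353). The share was 2.10 to 2.53% in all Tranilast and 12.3 to 14.8% in all Amphotericin B libraries, so that drug and share cannot be told apart there. The part of mitochondrial ribosomal RNA in these differences was not tested.

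**Figure D3:**
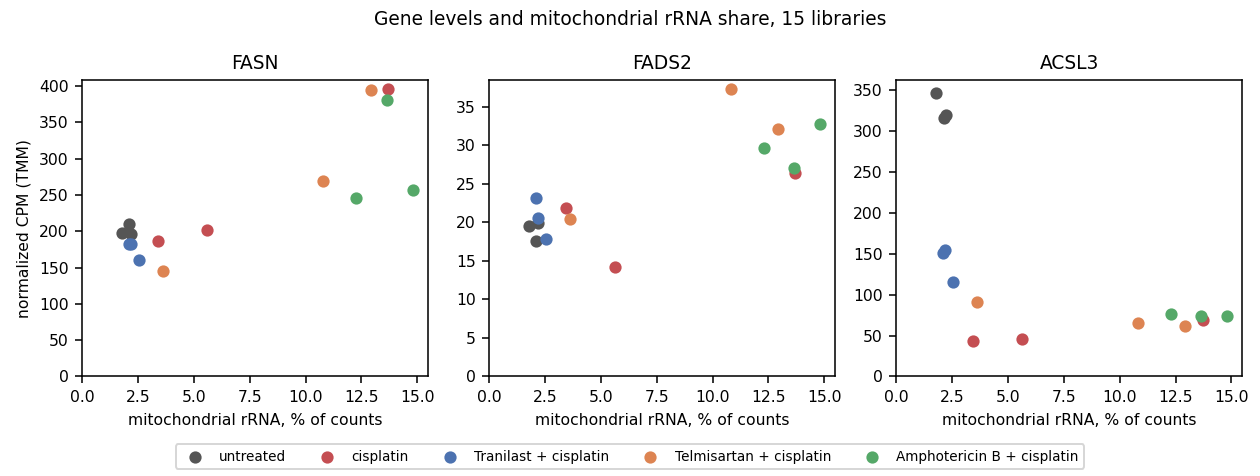
Level of FASN, FADS2 and ACSL3 (y axes, TMM-normalized CPM) against the share of counts on mitochondrial ribosomal RNA (x axis, percent) in 15 libraries coloured by condition. The 6 libraries over 10% hold the highest FASN (246 to 395 CPM) and FADS2 (26.3 to 37.3 CPM), whereas ACSL3 at 61.3 to 76.2 CPM in them overlaps the other libraries.

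ELOVL6, which lengthens palmitate to stearate, showed the plainest difference with Tranilast among the members that the rule did not single out. It was at 54.8, 47.8 and 46.3 CPM in untreated cells and at 19.0, 7.36 and 29.4 CPM after cisplatin. The Tranilast libraries held 45.8, 48.8 and 46.3 CPM, a mean of 94.6% of the untreated one. Telmisartan gave 19.4, 22.6 and 37.4 CPM and Amphotericin B 27.7, 36.1 and 19.4 CPM, both overlapping cisplatin. ELOVL6 was higher with Tranilast than with cisplatin by 1.31 ± 0.34 (log2, SE; interval 0.60 to 2.02; adjusted p = 0.0115). This call stayed past the threshold in every alternative run, including each fit without 1 library (0.94 to 1.86). It rests on the cisplatin libraries that were in view when the set was chosen, and is not independent of that choice. Every Tranilast library was also above every library of both other drugs, by 0.76 against Amphotericin B and 0.79 against Telmisartan, but neither difference passed the threshold in the fit of all libraries (adjusted p = 0.0866 and 0.154). Of all tested genes, 31.9% and 15.1% were higher without overlap in these comparisons. The difference from Amphotericin B passed with library size only (1.41), with no expression filter (0.89) and in the 6 libraries alone (0.62). It also passed without cisplatin replicate 2 (0.74), cisplatin replicate 3 (0.77) or Telmisartan replicate 3 (0.77), and without both libraries that stand apart (0.78). The difference from Telmisartan passed with no filter (0.81), without Telmisartan replicate 3 (1.17) and without both (1.17). With the mitochondrial ribosomal RNA share in the fit the difference from Amphotericin B was −0.058.

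The desaturases differed from each other. SCD, the most counted member, was at 691, 597 and 667 CPM in untreated cells and at 525, 445 and 414 CPM after cisplatin. Tranilast libraries held 422, 433 and 515 CPM and Telmisartan libraries 380, 437 and 339 CPM, while Amphotericin B libraries were lowest at 304, 278 and 335 CPM, or 46.9% of the untreated mean. SCD was lower with Amphotericin B than with cisplatin by −0.59 ± 0.17 (log2, SE; adjusted p = 0.0343) while the Tranilast group exceeded Amphotericin B by 0.58 ± 0.17 (adjusted p = 0.0160). The Amphotericin B libraries did not overlap those of cisplatin, Tranilast or Telmisartan. Without overlap, 13.8% of all tested genes were lower with Amphotericin B than with cisplatin, 31.9% than with Tranilast and 12.5% than with Telmisartan. The first call was lost in all 6 fits that left out a library of either group (−0.45 to −0.67), with RLE factors (−0.53) and in the 6 libraries alone (−0.56). The second was lost with RLE factors (0.46), without Tranilast replicate 3 (0.50) or Amphotericin B replicate 2 (0.53). Without both libraries that stand apart both calls stayed past the threshold at −0.50 and 0.59. Against cisplatin, SCD with Tranilast had an interval of −0.37 to 0.35.

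FADS2 was low throughout, at 17.6 to 19.9 CPM in untreated cells, 14.2 to 26.3 CPM after cisplatin and 17.9 to 23.2 CPM with Tranilast. It was 20.4 to 37.3 CPM with Telmisartan and 27.0 to 32.8 CPM with Amphotericin B. Its differences of 0.50 and 0.52 (log2) from cisplatin missed the threshold (adjusted p = 0.513 and 0.193), and without both libraries that stand apart they were 0.92 and 0.70 and passed it. FADS2 values are uncertain, because its gene body overlaps FADS1 on the opposite strand (276 to 2199 counts per library) and FEN1 on the same strand (72 to 632 counts), and whether the counting used strand is not given in the sources used here.

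Across the set, the untested difference of cisplatin from untreated cells was negative for ACSL1, ACSL3, ACSL4, SCD, ACACA, ACLY and ELOVL6. The values of FASN (0.37) and FADS2 (0.13) were positive, and both were −0.05 without both libraries that stand apart. Of all tested genes 23.6% were lower and 21.1% higher at an adjusted p under 0.05. Since the set was chosen on this contrast, nothing is read from the directions of its members. For Tranilast against cisplatin, 3 of the 8 tested members other than ACSL3 were higher (ACSL4, ACLY and ELOVL6) and 0 were lower, beside 10.5% of all genes higher and 11.6% lower. The median difference of these 8 was 0.23 against 0.02 over all genes. For Amphotericin B against cisplatin, 1 of 8 was lower (SCD) and 0 were higher, beside 9.01% and 4.21% of all genes, with a median of 0.35 against −0.04. For Telmisartan against cisplatin edgeR called 0 of 8 members and 0% of all genes. DESeq2 called 0 of these members, and 19 genes lower and 3 higher in all. At an unadjusted p under 0.05, 1 of the 8 (ACLY) was higher and 0 were lower, beside 5.02% and 5.33% of all genes. The median of the 8 was 0.45 against 0.00 over all genes. The comparisons with cisplatin share the same cisplatin libraries, which were in view when the set was chosen, so these counts are not independent of the choice. Set beside untreated cells, as a description of levels, the median difference of the 9 tested members was −0.77 after cisplatin, −0.34 with Tranilast, −0.76 with Telmisartan and −0.68 with Amphotericin B, against −0.01, −0.01, −0.03 and −0.19 over all genes, with the untreated libraries shared.

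Without cisplatin replicate 1 and Telmisartan replicate 3 these counts changed. In that fit 4 of 8 members were higher with Tranilast than with cisplatin, ACACA being the addition, beside 18.1% of all genes. With Telmisartan 4 of 8 were higher (FASN, ACACA, ACLY and FADS2), beside 12.4% of all genes. With Amphotericin B 4 of 8 were higher (the same 4 genes) and SCD was lower, beside 20.5% and 22.9% of all genes. FASN was higher than in the 2 remaining cisplatin libraries by 0.77 with Telmisartan and by 0.59 with Amphotericin B. The mitochondrial ribosomal RNA share was 5.61% and 3.41% in those cisplatin libraries. It was 10.8% and 12.9% in the remaining Telmisartan libraries and 12.3 to 14.8% in the Amphotericin B libraries. In this fit, either of these drugs and the share cannot be told apart when set against cisplatin.

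Between drugs, 3 of the 9 tested members were higher with Tranilast than with Amphotericin B (ACSL3, ACSL4 and SCD) and 0 were lower, beside 19.7% and 16.4% of all genes. With Tranilast against Telmisartan 1 of 9 was higher (ACSL3) and 0 were lower, beside 0.585% and 1.75%. For Telmisartan against Amphotericin B 0 of 9 members and 0% of genes passed the adjusted threshold in edgeR, and DESeq2 called 0 members and 64 genes lower and 120 higher. At an unadjusted p under 0.05, 0 of 9 members passed, beside 13.1% of all genes higher and 7.49% lower. The highest of these values was 0.62 for ACSL4, with an interval of −0.04 to 1.29. Without both libraries that stand apart, 6 members differed between Tranilast and Amphotericin B (4 higher, 2 lower, beside 27.9% and 21.4% of all genes) and 5 between Tranilast and Telmisartan (3 higher, 2 lower, beside 19.3% and 17.3%). In both, ACSL3, ACSL4 and ELOVL6 were higher and FASN and FADS2 lower. The mitochondrial ribosomal RNA share was 10.8% and 12.9% in the Telmisartan libraries kept and 12.3 to 14.8% with Amphotericin B. With Tranilast it was 2.10 to 2.53%, so that drug and share cannot be told apart in either comparison. With library size as the only scaling of all libraries, FADS2 turned to 0.12 against Amphotericin B.

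**Figure D4:**
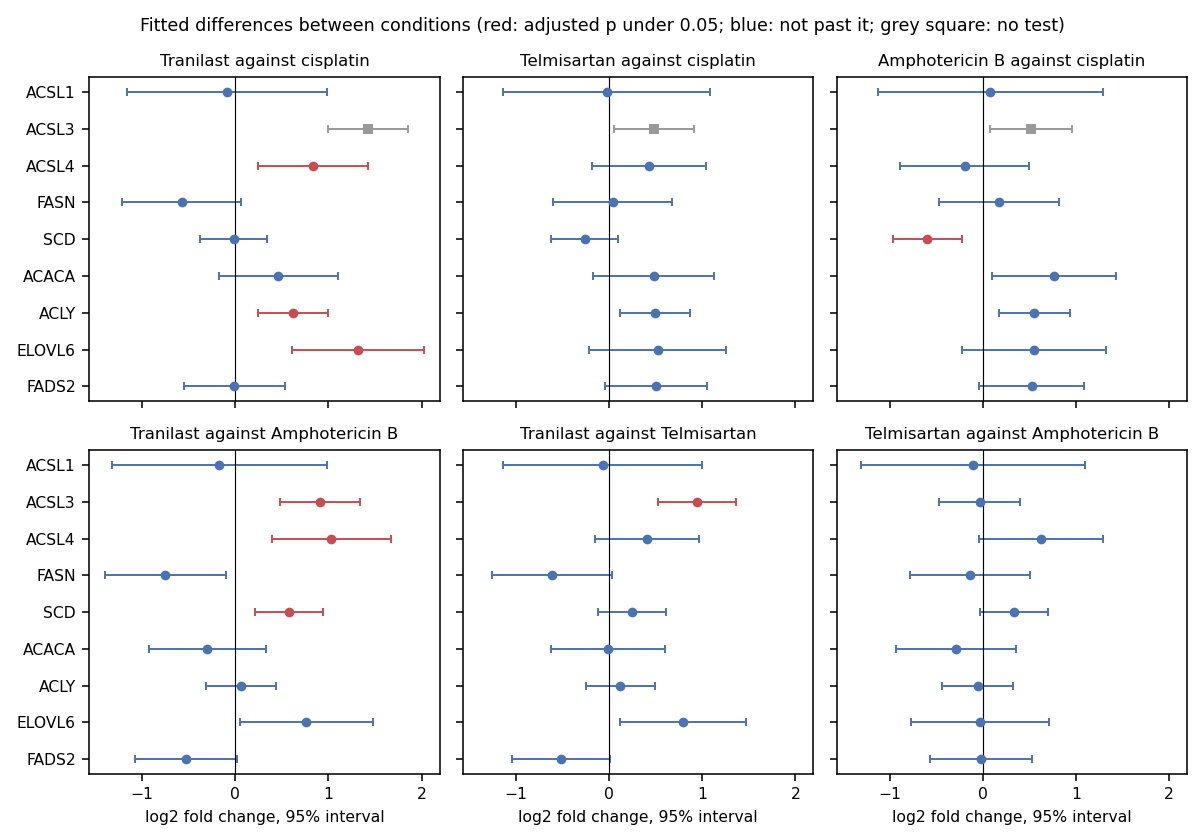
Fitted log2 fold change (x axis) with its 95% interval for each tested member (y axis) in 6 comparisons, with red for an adjusted p under 0.05, blue for values that missed it and grey squares for ACSL3 against cisplatin, which carries no test. ELOVL6, ACLY and ACSL4 are red and positive for Tranilast against cisplatin, at 1.31, 0.62 and 0.84, and SCD is red and negative for Amphotericin B against cisplatin, at −0.59.

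The members differ in how much of the chromosome their genes span, a property the choice did not use but that was looked at after the values were known. In the GENCODE 29 annotation SCD spans 17.7 kb, FASN just over 20 kb, ACLY 63.6 kb, ACSL1 71.2 kb, FADS2 74.4 kb, ACSL3 83.7 kb, ACSL4 109 kb, ELOVL6 153 kb and ACACA 322 kb. Over the 10965 tested genes with a span, the median difference between cisplatin and untreated cells was 0.55 (log2) for genes under 20 kb, 0.00 from 20 to 60 kb, −0.59 from 60 to 120 kb and −1.40 over 120 kb. ELOVL6 (−1.39) and ACACA (−1.44) lay at the median of the widest class in the fit of all libraries. ACACA was −2.10 without cisplatin replicate 1 and −2.08 without both libraries that stand apart. ELOVL6 ran from −1.93 to −1.02 over the fits without 1 library. The class medians were not computed for those fits. In the class from 60 to 120 kb, ACLY (−0.77), ACSL4 (−1.20) and ACSL3 (−2.65) lay below the median, and ACSL1 (−0.25) and FADS2 (0.13) above it. SCD (−0.50) lay below the median of the genes under 20 kb, and FASN (0.37) above that of its class. The 10th and 90th percentiles of the class from 60 to 120 kb were −1.51 and 0.26, and since ACSL3 was chosen for this fall, its place below them is a description that follows from the choice.

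The same classes ran the other way for Tranilast against cisplatin, with medians of −0.36, 0.06, 0.45 and 0.72 from the shortest to the widest. The 3 members that passed the threshold in this comparison span over 60 kb, where 20.3% (60 to 120 kb) and 32.7% (over 120 kb) of all genes were higher at an adjusted p under 0.05. ACSL4 (0.84), ACLY (0.62), FADS2 (−0.01) and ACSL1 (−0.09) lay between the 10th and 90th percentiles of their class, −0.19 and 1.07, and ACSL3 (1.43), in a contrast that shares the cisplatin libraries it was chosen on, above them. ELOVL6 (1.31) and ACACA (0.46) lay between those of the widest class, −0.45 and 1.54. FASN (−0.57) lay below the median of its class and SCD (−0.01) above it. With Amphotericin B the class medians were −0.08, −0.19, 0.00 and 0.55, with ELOVL6 at 0.55 and ACACA at 0.76 in the widest class. In the class from 60 to 120 kb, ACLY (0.55), FADS2 (0.52) and ACSL3 (0.52) lay above the median, ACSL1 was at 0.08 and ACSL4 at −0.20. SCD (−0.59) lay below the median of its class and FASN (0.17) above it. For Tranilast against Amphotericin B the class medians were −0.20, 0.28, 0.49 and 0.19. The members that passed there lay between the 10th and 90th percentiles of their classes. These were −0.52 and 1.41 for ACSL3 (0.91) and ACSL4 (1.03), and −1.58 and 0.95 for SCD (0.58). For Tranilast against Telmisartan, ACSL3 (0.94) lay above the 90th percentile of its class, 0.76. The part of gene span in the members' differences was not tested.

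**Figure D5:**
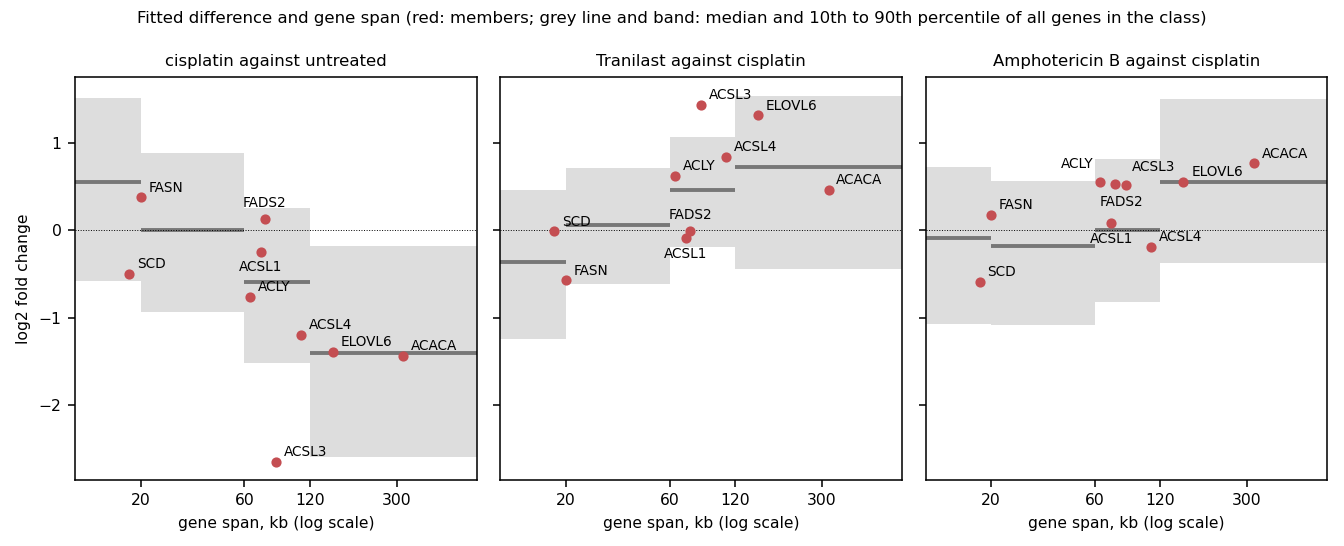
Fitted log2 fold change of each tested member (red dots, y axis) against its gene span in kb (x axis, log scale) in 3 comparisons, with a grey line for the median and a grey band for the 10th to 90th percentile of all tested genes in each of 4 span classes. With cisplatin the medians step down from 0.55 to −1.40. ELOVL6 and ACACA lie near theirs, ACSL4 and ACLY below, FADS2, ACSL1 and FASN above and SCD below, and ACSL3, chosen for this fall, lies under its band. With Tranilast the medians step up from −0.36 to 0.72.

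The genes whose levels over the 15 libraries were most like those of ACSL3 were MAP1B, IGF2BP2, FGF2, ATP2B1 and ATP11B. Likeness was the root mean square difference of centred log2 CPM, which was 0.211 to 0.263 for these 5 among 8545 genes with enough counts, against a median of 1.01. They span 71.5 to 181 kb. Among the members, ACSL4 ranked 422nd at 0.552, ELOVL6 730th at 0.627 and ACACA 810th at 0.642, while FASN ranked 6238th at 1.20.

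The other genes of fatty acid handling were counted in 8 lists. Over all genes, 23.6% were lower and 21.1% higher for cisplatin against untreated cells. Against cisplatin, 11.6% were lower and 10.5% higher with Tranilast, and 9.01% and 4.21% with Amphotericin B. The list counts below stand beside these shares and were not tested as sets. Among regulators of fatty acid synthesis, 8 of 19 tested genes were lower and 1 was higher after cisplatin than in untreated cells (list median −0.52, against −0.01 over all genes). INSIG1, which holds the sterol sensor in the endoplasmic reticulum, rose by 1.29 (adjusted p = 0.00036), and RXRA, a nuclear receptor partner, fell by 1.48 (adjusted p = 0.00204). SREBF1, which encodes the transcription factor SREBP1, fell by 0.87 (adjusted p = 0.0151). With Tranilast against cisplatin 2 of these 19 were higher, RXRA by 1.64 and the SREBP protease MBTPS2 by 1.38 (adjusted p = 0.00393 and 0.008), and SREBF1 did not pass at 0.71 (adjusted p = 0.069). With Amphotericin B 0 of 19 passed.

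Of the other acyl-CoA synthetases, 3 of 10 were lower after cisplatin and 0 were higher, beside 23.6% and 21.1% of all genes. SLC27A2, a very-long-chain synthetase and transporter, was at −2.18 (adjusted p = 0.000222) and AACS, which activates acetoacetate, at −1.21 (adjusted p = 0.00183). SLC27A2 was the only one of the 10 to pass with Tranilast against cisplatin, at 1.50 (adjusted p = 0.0116), and ACSF2 with Amphotericin B, at 2.48 (adjusted p = 0.0281). Among precursor supply genes 4 of 12 were lower and 2 were higher after cisplatin. IDH1 and ME1, which both make NADPH, were at −1.32 and −1.89 (adjusted p = 0.00016 and 0.00019). With Tranilast 2 of 12 were higher, with ACACB, the mitochondrial acetyl-CoA carboxylase, at 1.82 (adjusted p = 0.00786), and NDUFAB1, the mitochondrial acyl carrier protein, was lower at −0.97 (adjusted p = 0.0223). With Amphotericin B 0 of 12 passed.

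Among the other elongation and desaturation enzymes, 3 of 12 were lower and 3 higher after cisplatin, beside 23.6% and 21.1% of all genes. ELOVL3 was at 2.70 and HSD17B12 at −1.35 (adjusted p = 0.00249 and 0.00344). FADS1, the delta-5 desaturase that overlaps FADS2, was the only one of the 12 to pass with Tranilast against cisplatin, at 0.85 (adjusted p = 0.00928), and 0 passed with Amphotericin B. Fatty acid oxidation genes passed in 5 of 24 cases after cisplatin, 4 lower and 1 higher, led by CPT1A, the carnitine palmitoyltransferase of the outer mitochondrial membrane, at −2.29 (adjusted p = 1.75e-05), and HSD17B4, a peroxisomal enzyme, at −1.34 (adjusted p = 0.00034). With Tranilast 1 of the 24 was higher, the carnitine carrier SLC25A20 at 1.40 (adjusted p = 0.0161). With Amphotericin B 2 were higher, ETFB at 0.81 and HADHA at 0.64 (adjusted p = 0.0398 and 0.0434).

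Glycerolipid and lipid droplet genes were split after cisplatin, with 3 of 18 lower and 4 higher, beside 23.6% and 21.1% of all genes. The acyltransferase AGPAT3 was at −1.69 and the lipid droplet coat gene PLIN2 at 1.10 (adjusted p = 6.49e-05 and 0.00173). With Tranilast 2 of 18 were higher, AGPAT3 at 1.31 and the phosphatidate phosphatase LPIN1 at 1.07 (adjusted p = 0.0031 and 0.0213), and with Amphotericin B the acyltransferase GPAT4 was lower at −1.74 (adjusted p = 0.00802). Of the phospholipid remodelling genes 3 of 8 were lower and 1 higher after cisplatin, led by the acyltransferases MBOAT2 at −1.11 and LCLAT1 at −1.30 (adjusted p = 0.000831 and 0.00922). With Tranilast 3 of the 8 were higher and 1 was lower, with LPCAT3 at 1.26 and LCLAT1 at 1.19 (adjusted p = 0.0172 and 0.030), and with Amphotericin B 2 were higher and 1 lower, with LPCAT3 at 1.87 and GPX4 at 0.93 (adjusted p = 0.00593 and 0.0361). Acyl-CoA binding and thioesterase genes passed in 2 of 10 cases after cisplatin, ACBD4 at −1.12 and DBI, the acyl-CoA binding protein, at 1.12 (adjusted p = 0.0116 and 0.0236), and DBI was lower with Tranilast at −1.50 (adjusted p = 0.0109) while ACOT7 was higher with Amphotericin B at 1.60 (adjusted p = 0.0399). For Telmisartan against cisplatin 0 genes of the 8 lists passed, as for all genes. Without both libraries that stand apart, 12 of the 112 list genes then tested were lower and 19 higher with Telmisartan than with cisplatin. In that fit 41 of the 42 list calls for cisplatin against untreated remained (PPARGC1B was lost), as did all 15 for Tranilast and all 8 for Amphotericin B against cisplatin. The lists then held 47 lower and 20 higher genes for cisplatin against untreated, 9 and 27 for Tranilast, and 19 and 34 for Amphotericin B. Of all genes in that fit, 28.4% were lower and 27.1% higher for cisplatin against untreated. Against cisplatin the shares were 18.2% and 18.1% for Tranilast, 12.5% and 12.4% for Telmisartan, and 22.9% and 20.5% for Amphotericin B. These lists were drawn up with earlier results known, and their counts describe them beside the background shares above.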

How the data were processed

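The authors deposited 1 table of raw counts per library, whole numbers for 47634 Ensembl identifiers. Per the labels, 100 ng of RNA went into each QuantSeq 3′ library, with 75 base reads. The submitters' processing notes name STAR 2.3.0, HTSeq and hg19, and the annotation and strand setting are not given in the sources used here. A reference table named 45455 identifiers, and that of ACACA came from the study's gene list. No sample column was left out (0 unused).

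The counts were fitted with edgeR 4.0.16 (filterByExpr, TMM, quasi-likelihood) in R 4.3.3, all 15 libraries sharing 1 estimate of spread. Depth of 1510620 to 3517041 counts and 3 libraries per group limit precision. Log2 fold changes of members under 0.4 are mostly given as levels only. The replicate number was not a block. Results were also computed with DESeq2 1.42.0, RLE factors, library size only, no expression filter, the replicate block, the mitochondrial ribosomal RNA share as covariate, the 6 libraries alone and leaving out each library. Leaving out both libraries that stand apart, the span classes and the ratios were added after the data were seen. The scripts were tested on simulated data.

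Members and lists were chosen with earlier results of these data known. Named genes were all members, the 2 list genes with the smallest adjusted p past the threshold per list and comparison, the 5 genes most like ACSL3 with mean log2 CPM of at least 3; SREBF1 was added after its value was seen.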

Additional observations from a re-analysis of the deposited data

Results flagged for a closer look

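Groups that received different drugs before cisplatin differed in 3 members by a direct test between groups in edgeR's quasi-likelihood fit. The counts were in view when the set was chosen, so these calls are not fully independent of the choice. ACSL3 was higher with Tranilast than with Amphotericin B by 0.91 on the log2 scale (adjusted p = 0.00324) and than with Telmisartan by 0.94 (adjusted p = 0.0412), in 3 of 3 Tranilast libraries against 3 of 3 of the other group in both cases. ACSL4 was higher with Tranilast than with Amphotericin B by 1.03 (adjusted p = 0.0149), and SCD by 0.58 (adjusted p = 0.0160), again with no overlap between libraries. Such separation was common, as 31.9% of all tested genes were higher without overlap for Tranilast against Amphotericin B and 15.1% against Telmisartan. With the mitochondrial ribosomal RNA share in the fit, the ACSL3 and ACSL4 differences from Amphotericin B (0.93 and 0.77) no longer passed. The ACSL3 call against Telmisartan was lost in 11 of 15 fits without 1 library, over which the difference ran from 0.84 to 1.15. Without Tranilast replicate 3 the ACSL4 and SCD calls were lost (0.88 and 0.50), as they were without Amphotericin B replicate 3 (ACSL4, 0.96) or 2 (SCD, 0.53), and the SCD call also with RLE factors (0.46). Over all tested genes, 36% passed for Tranilast against Amphotericin B, beside 3 of 9 tested members, which is near that share. For Tranilast against Telmisartan 2.34% passed, beside 1 of 9 members. In the class of genes spanning 60 to 120 kb, which holds ACSL3 and ACSL4, the median for Tranilast against Amphotericin B was 0.49. In that class 32.9% of genes were higher at an adjusted p under 0.05. The groups held only 3 libraries each, so no single library was tested for standing apart within a group by its value for 1 gene.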

How the results depend on the processing

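ELOVL6 stayed higher and past the threshold for Tranilast against cisplatin in all alternatives run. Members past the threshold for Tranilast against cisplatin (3) were 5 with library size only, 1 in the 6 libraries alone and 1 to 4 without 1 library. For Amphotericin B against cisplatin (1) they were 2 in DESeq2, 0 in the 6 libraries alone, 5 without both libraries that stand apart and 0 to 3 without 1 library. For Telmisartan against cisplatin (0) they were 4 without both and 0 to 1 without 1 library, the 1 being ACACA without cisplatin replicate 1. For Tranilast against Amphotericin B (3) they were 5 with library size only, 5 with no filter, 1 with the mitochondrial ribosomal RNA share in the fit, 6 in the 6 libraries alone, 6 without both and 1 to 5 without 1 library. For Tranilast against Telmisartan (1) they were 0 with library size only, 2 with no filter, 0 in the 6 libraries alone, 5 without both and 0 to 4 without 1 library. The causes of these changes were not tested.

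Median differences of the members from untreated cells moved by more than the spread between libraries in some alternatives. For Tranilast (−0.34) the median was −0.25 with library size only, −0.29 in the 6 libraries alone and −0.16 to −0.47 without 1 library. For Telmisartan (−0.76) it was −0.99 with library size only, −0.59 with the mitochondrial share and −0.66 in the 6 libraries alone. For Amphotericin B (−0.68) it was −0.56 in DESeq2, −0.56 with RLE factors, −1.25 with library size only, −0.79 with no filter, −0.87 with the mitochondrial share, −0.50 in the 6 libraries alone and −0.60 to −0.76 without 1 library. With library size only, the median of all genes itself shifted, to 0.46 for Tranilast against cisplatin and 0.81 for Tranilast against Amphotericin B. Calls over all genes then went from 1293 lower and 1169 higher to 397 and 2582 in the first, and from 1817 and 2186 to 763 and 5313 in the second (2202 and 1758 in DESeq2).

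Directions turned for FASN with the mitochondrial share in the fit (0.17, 0.65 and 0.34 for Tranilast against cisplatin, Amphotericin B and Telmisartan), for ELOVL6 with Tranilast against Amphotericin B (−0.058 with that share) and for FADS2 in the same comparison (0.12 with library size only, 0.18 with that share). None of these turned values passed the threshold. ACSL3 for Telmisartan against Amphotericin B, near 0 in the fit of all libraries, was 0.32 with library size only, 0.075 with no filter, and 0.041 and 0.081 without Telmisartan replicate 1 or 2.

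Same-numbered libraries correlated between −0.23 and 0.63 in their deviations from the group means, and differently numbered ones between −0.58 and 0.48. The value of 0.63 was that of Telmisartan replicate 3, which stands apart, with cisplatin replicate 3. The numbers were not taken to pair the samples. With the replicate block, members past the threshold were 3, 0, 1, 3, 1 and 0 in the 6 comparisons of drugs with cisplatin and with each other, as without it, and it changed no call. Depth limits ACSL1, ACSL4, ELOVL6, ACACA and FADS2 most, with as few as 2, 11, 15, 27 and 29 counts in a library.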
